A study of Mus musculus with 6 samples.

Results

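The Frizzled receptors of the mouse are encoded by 10 genes, Fzd1 to Fzd10. They were chosen by gene symbol alone, and all 10 were found among the 23594 genes of the deposited count table. All 10 also passed the expression filter that left 20114 genes for testing. The study asked how the LIM-homeodomain gene Lhx6 patterns the root of the mouse molar. Apical tissue of the furcation development region, where the roots of a molar part, was cut by laser-capture microdissection from mandibular first molars of C57BL/6 mice at 4.5 days after birth, and its RNA was sequenced. The 3 control libraries came from mice labelled wild type, and the 3 Lhx6-/- libraries from mice that carry an inducible Cre recombinase (CreER) in both copies of Lhx6, an insertion that abolishes the function of the gene. Each library combined tissue of 8 molars, both sexes were collected, and no tamoxifen is stated for these animals. The insertion is in every cell of the animal, so the loss of Lhx6 is not limited to a cell type.

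Frizzled receptors sit in the cell membrane and hold Wnt proteins with an extracellular cysteine-rich domain. With the co-receptors Lrp5 or Lrp6 they pass the signal to Dishevelled and on to beta-catenin, the canonical branch. Without these co-receptors some of them act in planar cell polarity or in calcium signaling. Wnt signaling is needed for odontoblast differentiation and root formation in the molar.

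The family falls into groups by sequence, and the place where Dishevelled docks is the part all its members share. Directly after the last membrane-spanning segment every Frizzled carries the motif lysine, threonine, any 3 residues, tryptophan (Lys-Thr-X-X-X-Trp), which Dishevelled binds. Its codons were found exactly once in each of the 10 coding sequences of the GENCODE vM21 annotation. They are shown here because all members share the motif. The letters around it follow the sequence groups only in part, those of Fzd7 being more like those of Fzd5 than those of Fzd1 or Fzd2. Each stretch is 30 bases long, 5′ to 3′ on the coding strand, with the 18 bases of the motif in capitals.
Fzd1: tccggcAAGACACTGAATTCCTGGaggaag
Fzd2: tccggcAAGACACTGCACTCGTGGaggaag
Fzd7: tcgggcAAGACCCTGCAGTCATGGcgtcgc
Fzd5: tccggcAAGACTCTGGAGTCTTGGcggcgg
Fzd4: tctgccAAAACTCTTCACACGTGGcaaaag
Fzd9: agttccAAGACTTTTCAGACTTGGcagagc
Fzd10: acttccAAGACCCTGCAGTCCTGGcaacac
Fzd3: agcaaaAAGACATGCTTTGAATGGgccagt
Fzd6: agcaaaAAGACGTGCACAGAATGGgccggg
On mm10 (GRCm38) these stretches are exonic and coding. They lie at chr5:4755700-4755729 (minus strand) for Fzd1, chr11:102606367-102606396 (plus) for Fzd2, chr1:59484601-59484630 (plus) for Fzd7 and chr1:64735005-64735034 (minus) for Fzd5. Those of Fzd4, Fzd9 and Fzd10 lie at chr7:89408235-89408264 (plus), chr5:135249410-135249439 (minus) and chr5:128602790-128602819 (plus), and those of Fzd3 and Fzd6 at chr14:65212101-65212130 (minus) and chr15:39033943-39033972 (plus). Fzd8 has the motif too, at codon 606 of 685, and its letters are not shown.

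What follows the motif differs in length. In Fzd1, Fzd2 and Fzd7 only 17 codons remain after it, against 33 in Fzd4, 50 in Fzd10, 54 in Fzd9, 55 in Fzd5, 74 in Fzd8, 159 in Fzd3 and 206 in Fzd6. The whole end of the short-tailed group is shown because Fzd1 and Fzd2 were the members with the smallest p-values. It runs 69 bases from the motif to the last codon before the stop, with the motif in capitals.
Fzd1: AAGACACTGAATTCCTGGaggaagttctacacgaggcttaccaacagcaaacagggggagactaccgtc
Fzd2: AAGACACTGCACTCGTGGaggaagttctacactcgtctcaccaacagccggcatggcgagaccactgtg
Fzd7: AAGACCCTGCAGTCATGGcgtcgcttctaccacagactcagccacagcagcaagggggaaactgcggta
These ends lie at chr5:4755655-4755723 (minus), chr11:102606373-102606441 (plus) and chr1:59484607-59484675 (plus). Of the 69 bases, 41 were the same in all 3 genes, and Fzd1 and Fzd2 shared 54.

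Over whole coding sequences Fzd1 and Fzd2 were the closest pair, with 82.7% identical aligned bases. Fzd7 shared 78.8% with Fzd1 and 78.6% with Fzd2. Fzd5 and Fzd8 shared 76.8%, Fzd9 and Fzd10 72.6%, and Fzd3 and Fzd6 66.7%. Fzd4 was closest to Fzd10, at 68.9%. The lowest identity was 61.6%, between Fzd3 and Fzd8. None of the 45 pairs of Frizzled genes had any 75-base stretch in common in their annotated transcripts, 75 cycles being the length of the sequencing run. An exact full-length read therefore belongs to a single member, and reads shorter after trimming were not examined. Stretches shared with genes outside the family were not examined either. The deposited estimated counts of Fzd1, Fzd2, Fzd3, Fzd5 and Fzd6 were not whole numbers in every library, and the reason was not examined.

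**Figure D1:**
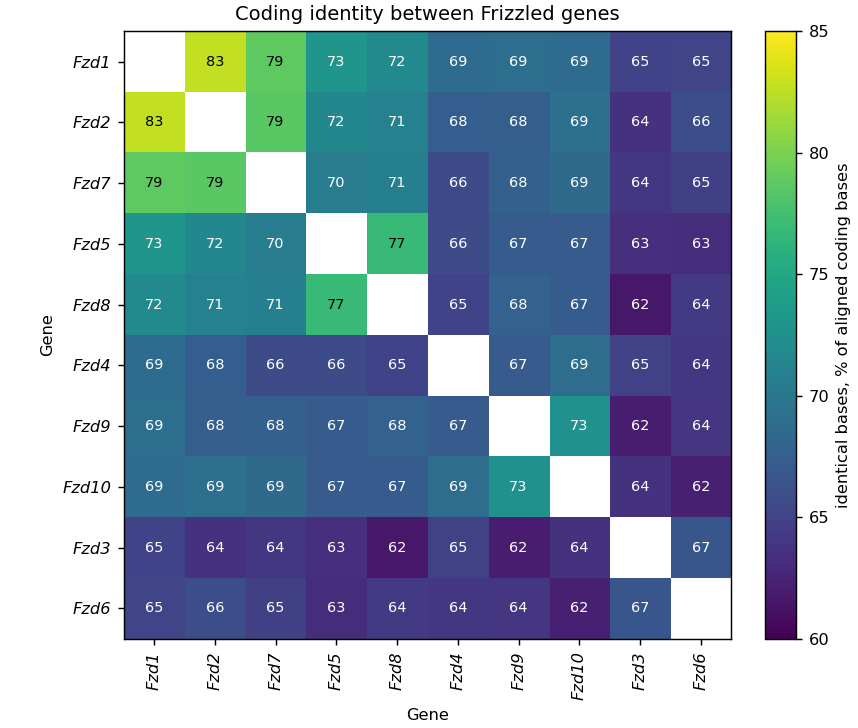
Percent of identical bases over the aligned coding sequences of each pair of Frizzled genes, rounded to whole percent, with genes in the order of their sequence groups on both axes. The lightest squares are Fzd1, Fzd2 and Fzd7 (78.6% to 82.7%) and Fzd5 with Fzd8 (76.8%).

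The genes also differ in layout. Fzd1 (chr5:4753839-4758035, minus strand), Fzd2 (chr11:102604396-102608058, plus), Fzd7 (chr1:59482424-59486955, plus), Fzd9 (chr5:135248938-135251230, minus), Fzd10 (chr5:128600844-128604093, plus) and Fzd8 (chromosome 18, plus) each have 1 exon. Fzd4 (chr7:89404355-89413134, plus) and Fzd5 (chr1:64730558-64737751, minus) have 2 exons in the transcript with the longest coding sequence. Fzd3 (chr14:65192449-65262463, minus) and Fzd6 (chr15:39006034-39038188, plus) have 7. Only Fzd3, Fzd5 and Fzd6 overlap another annotated gene within their span. Fzd5 shares 1512 bases with Gm38058 on the opposite strand, Fzd3 shares 613 bases with Gm9086 on the opposite strand and 76 with Gm27263 on its own, and Fzd6 shares 152 with Gm26704 on the opposite strand. Whether the counting used strand is not stated, so reads of these overlaps cannot be assigned to 1 gene.

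Windows from 250 bases before to 50 after the RefSeq start (GRCm38.p6) were at hand for 6 members, Fzd1, Fzd4, Fzd5, Fzd7, Fzd9 and Fzd10. Both strands were searched. These starts differ from those of GENCODE. The Fzd10 window lies wholly and the Fzd9 window mostly within the GENCODE transcript, while the Fzd1 and Fzd7 windows lie wholly before it. None of the 6 held TAATTA, a core letter string of LIM-homeodomain sites that 5.29% of all 32851 windows held, or TTCAAAG, a core string of TCF sites that 5.14% held. The Fzd1 window stood apart in make-up. Its GC content was 54.0%, against 66.7% to 78.0% in the other 5 windows and a median of 52.7% over all windows. It alone among the 6 held the TATA box TATAAA (13.6% of all windows), and it alone lacked the GC box GGGCGG (35.7% of all windows), which occurred 8, 10 and 7 times in Fzd4, Fzd5 and Fzd7 and once each in Fzd9 and Fzd10.

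The libraries held 60132299 to 76157449 rounded counts in 23594 genes. Levels are given as counts per 1000000 (CPM) after TMM scaling, and where 3 values are listed for a group they are replicates 1, 2 and 3 in this order. Lhx6 was lower in all 3 Lhx6-/- libraries, at 12.8, 9.82 and 10.5 CPM, than in the 3 control libraries, at 27.8, 18.2 and 21.9 CPM (log2 fold change -1.04 ± 0.16 SE, adjusted p = 0.021), though the adjusted p was 0.111, 0.11 and 0.0772 without control replicate 3, Lhx6-/- replicate 2 and Lhx6-/- replicate 3. The log2 fold change of Lhx6 was -0.62 with Y-linked expression as a covariate (adjusted p = 0.115), -0.83 blocked by the numbers in the library names (adjusted p = 0.106) and -1.37 with endothelial expression as a covariate (adjusted p = 0.999). This and every other adjusted p below, unless another tool is named, is from the quasi-likelihood test of edgeR, adjusted by Benjamini and Hochberg over all tested genes. The numbers in the library names leave control replicate 1 and Lhx6-/- replicate 3 without a partner, so these libraries do not inform the genotype difference in that block. The tissue was mixed. All 10 markers of dental mesenchyme were detected in sum at 94082 to 119040 CPM, while the 7 markers of ameloblasts, the enamel-forming epithelial cells, summed to 114978 to 146335 CPM. Most of the mesenchyme sum came from Col1a1 and Col1a2 (control means of 75994 and 27851 CPM), while Pax9 and Lhx8 were at 19.2 and 16 CPM. The sums thus do not give the share of each cell type. Cell type marker sums that did not overlap between genotypes were those of dental epithelium (11 genes, 1441 to 2198 CPM in the control libraries against 1066 to 1230 CPM in Lhx6-/- libraries), endothelium (10 genes, 374 to 382 and 419 to 490 CPM), pericytes and smooth muscle (7 genes, 474 to 535 and 642 to 775 CPM), erythroid cells (7 genes, 3037 to 3765 and 1610 to 2405 CPM) and odontoblasts (8 genes, 10599 to 11063 and 11307 to 12739 CPM). No gene of these lists was at 0 in all libraries. Of the 8 odontoblast markers, 6 were higher and 2 lower in Lhx6-/- tissue, with a median log2 fold change of 0.078. Dspp, the highest of them, had means of 4466 CPM in control and 5606 CPM in Lhx6-/- tissue and weighed most on their sum. The sum of 4 Y-linked genes ran from 14.6 to 58.0 CPM in the control and from 55.1 to 92.1 CPM in Lhx6-/- libraries, and the X-linked transcript Xist, made in female cells, was at 792, 411 and 628 CPM in the control libraries against 290, 0.228 and 0.0537 CPM in the Lhx6-/- libraries. Xist did not overlap between genotypes, and it was nearly absent from Lhx6-/- replicates 2 and 3. The sex make-up of the tissue thus went with genotype, and its part cannot be fully told apart from that of Lhx6.

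All 10 Frizzled genes were measured in every library, from 208 counts for Fzd9 to 3999 for Fzd2 in the lowest and highest library. Levels of different genes were compared per length, as CPM per kb of exon. Fzd2 led in both genotypes. It reached 12.4, 11.3 and 11 CPM per kb in the control libraries against 13.8, 14.7 and 14.1 CPM per kb in the Lhx6-/- libraries. Fzd7 followed at 9.28 ± 0.501 CPM per kb (SD, n = 3) in control and 10.2 ± 0.561 CPM per kb (SD, n = 3) in Lhx6-/- tissue, with no overlap with Fzd2 in either genotype.

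A middle tier was formed by Fzd6, Fzd1 and Fzd5, at control means of 7.21 ± 1.55, 7.14 ± 1.01 and 6.28 ± 0.601 CPM per kb (SD, n = 3). In control tissue the ranges of Fzd7, Fzd6, Fzd1 and Fzd5 overlapped from each neighbour to the next, so that neighbours in this order did not differ beyond their spread, while Fzd7 lay wholly above Fzd1 and Fzd5. Fzd8 (4.54 ± 0.272 CPM per kb), Fzd4 (3.17 ± 0.313 CPM per kb) and Fzd10 (2 ± 0.0418 CPM per kb) came next without overlap (SD, n = 3 control libraries). Fzd9 and Fzd3 were lowest, at 1.58 ± 0.103 and 1.39 ± 0.186 CPM per kb (SD, n = 3), and overlapped. In Lhx6-/- tissue Fzd1 ranked next after Fzd7, apart from Fzd6, at 9.13 ± 0.312 against 6.86 ± 0.592 CPM per kb (SD, n = 3), and Fzd3, Fzd10 and Fzd9 formed a chain of overlapping ranges at the bottom. With coding length in place of exon length, Fzd2, Fzd5 and Fzd7 were close together at control means of 24.8, 24.7 and 24.5 CPM per kb, and only Fzd2 kept its place in the order.

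**Figure D2:**
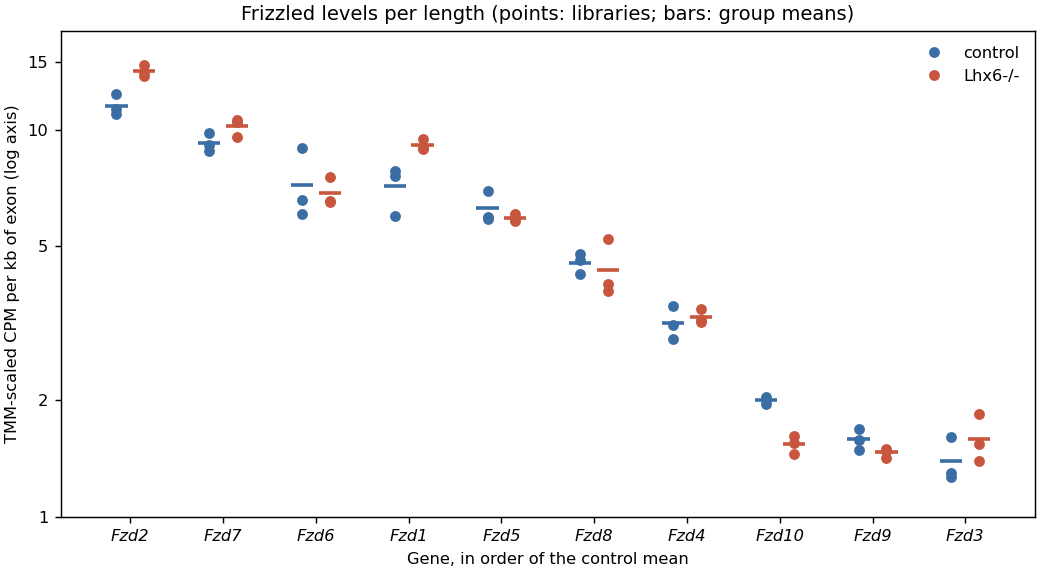
TMM-scaled CPM per kb of exon (log axis) of the 10 Frizzled genes, in order of the control mean, with 1 point per library (3 control, 3 Lhx6-/-) and a bar at each group mean. Fzd2 is highest in every library (11 to 14.7 CPM per kb), and Fzd10, Fzd9 and Fzd3 lie between 1.27 and 2.04 CPM per kb.

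The summed level of the family was 53.0, 56.0 and 53.4 CPM per kb in the control libraries against 56.4, 58.6 and 60.6 CPM per kb in the Lhx6-/- libraries. The Lhx6-/- sums lay above the control sums, by less than 1 CPM per kb at the nearest libraries. The short-tailed group Fzd1, Fzd2 and Fzd7 made up 55.0%, 49.8% and 50.2% of the summed level in control and 57.3%, 59.2% and 55.3% in Lhx6-/- libraries. Fzd5 and Fzd8 made up 19.1%, 19.2% and 21.7% in control and 17.4%, 16.6% and 18.6% in Lhx6-/- libraries. Fzd4, Fzd9 and Fzd10 made up 12.5% ± 0.739 in control and 10.8% ± 0.411 in Lhx6-/- tissue, and Fzd3 and Fzd6 15.8% ± 2.68 and 14.4% ± 0.945 (SD, n = 3). Within the short-tailed group, Fzd7 alone made up 17.2% ± 1.31 in control and 17.5% ± 0.553 in Lhx6-/- tissue (SD, n = 3). All shares rest on exon length and were not computed with coding length, which changes the order of the genes. These shares add to a whole, so that a higher share of 1 group lowers the others.

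No Frizzled gene passed the test for a genotype difference. At an adjusted p under 0.05 edgeR called 0 of the 10, where it called 0.403% of all tested genes (0.323% higher and 0.0795% lower in Lhx6-/- tissue). The rule the study used, a change of 1.5-fold or more and an unadjusted p below 0.05, was met by 0 of the 10 and by 3.28% of all tested genes. At an unadjusted p under 0.05 alone there were 3 members, Fzd2 and Fzd1 higher and Fzd10 lower, where 9.81% of all tested genes had such a p. The same 3 were the members whose groups did not overlap, which held for 15.5% of all tested genes. DESeq2 called 1 of the 10, Fzd2, at an adjusted p of 0.0499. The limma fits called 0. The median log2 fold change of the 10 was -0.004, and that of all tested genes -0.002, with 5 members above 0 and 5 below. In bulk tissue fewer cells of a type and less RNA per cell cannot be told apart.

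**Figure D3:**
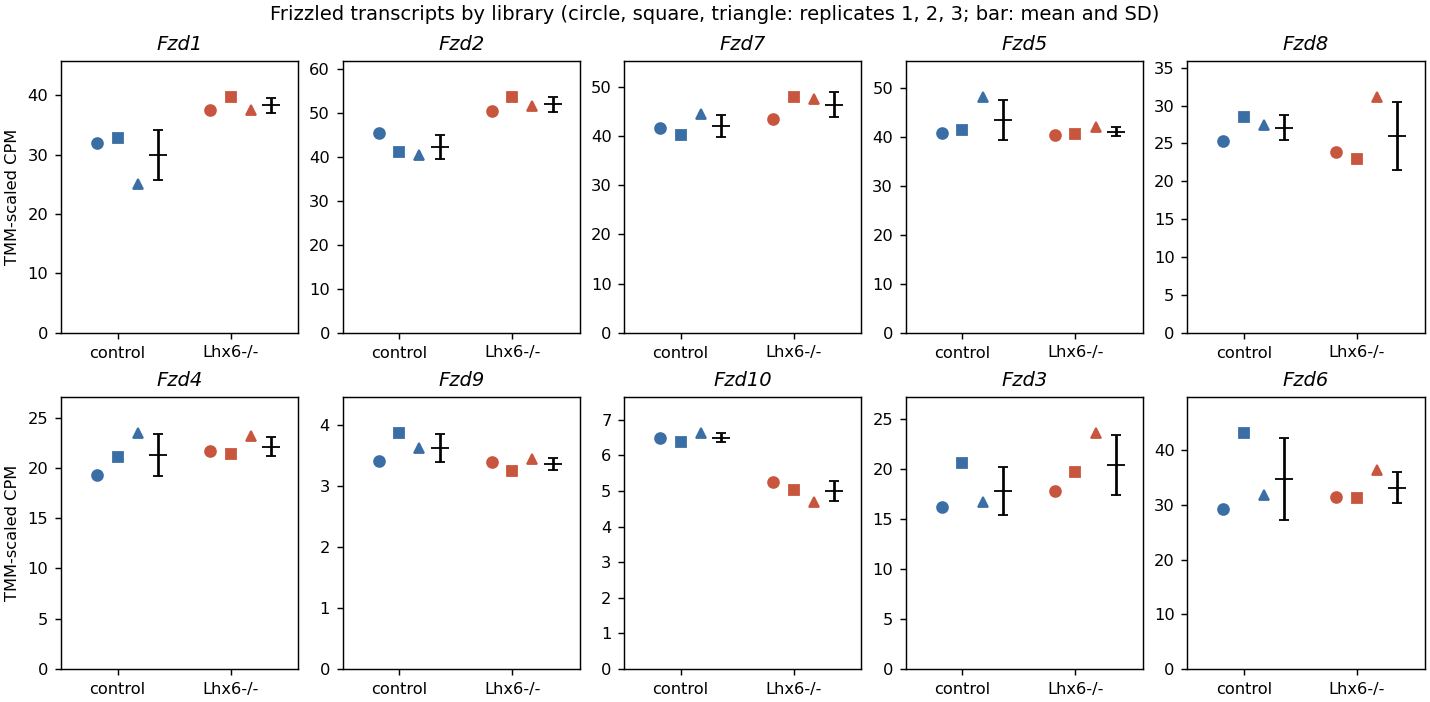
TMM-scaled CPM of each Frizzled gene in every library, with control in blue and Lhx6-/- in red, the marker shape giving the replicate number and the black bar the mean and SD of 3 libraries. Only in Fzd1, Fzd2 and Fzd10 are the colours fully apart, and control replicate 2 stands high in Fzd6 (43.2 CPM).

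Fzd2 and Fzd1 pass canonical Wnt signals and, in development, also act in tissue shaping. Fzd2 measured 45.4, 41.2 and 40.4 CPM in the control libraries against 50.4, 53.7 and 51.6 CPM in the Lhx6-/- libraries. All Lhx6-/- libraries lay above all control libraries. The fold was 1.23 (95% interval 1.10 to 1.37), a log2 fold change of 0.29 (standard error 0.07, unadjusted p = 0.00192, adjusted p = 0.173 by edgeR). Fzd1 measured 31.9, 32.9 and 25.1 CPM in the control libraries against 37.6, 39.8 and 37.5 CPM in the Lhx6-/- libraries. The groups did not overlap, and control replicate 3 was the lowest by far. The log2 fold change of Fzd1 was 0.35 (standard error 0.10, 95% interval 0.13 to 0.57, adjusted p = 0.235 by edgeR). It was 0.24 without control replicate 3 and 0.16 with Y-linked expression as a covariate (adjusted p = 0.519 and 0.658 by edgeR).

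Fzd7, the other short-tailed member and a receptor found in many stem and progenitor cells, measured 41.6, 40.1 and 44.5 CPM in the control libraries against 43.4, 48.0 and 47.6 CPM in the Lhx6-/- libraries. Its groups overlapped through control replicate 3. The log2 fold change was 0.14 (standard error 0.08, 95% interval -0.03 to 0.31, adjusted p = 0.613 by edgeR). The 3 short-tailed members were thus each higher on average in Lhx6-/- tissue, by 22.6% for Fzd2, 27.8% for Fzd1 and 10.3% for Fzd7, and none passed the test. Dental mesenchyme markers had the same direction between genotypes, all 10 above 0 with a median log2 fold change of 0.18. So had all 7 pericyte and smooth muscle markers (median 0.36). Among the Lhx6-/- libraries the 3 genes were highest in replicate 2, where the marker sums of mesenchyme (109142 CPM) and of pericytes and smooth muscle (642 CPM) were lowest. The mesenchyme sums overlapped between genotypes. The part of these cell types in the values was not tested. With epithelial expression as a covariate the log2 fold change was 0.50 for Fzd1, 0.23 for Fzd2 and 0.091 for Fzd7.

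Fzd10 was lower in all 3 Lhx6-/- libraries than in any control library, and of the 5 members below 0 it had the largest difference. It measured 6.49, 6.37 and 6.64 CPM in the control libraries against 5.25, 5.02 and 4.70 CPM in the Lhx6-/- libraries. The groups lay apart, and the control libraries were within 0.3 CPM of each other. The log2 fold change was -0.38 (standard error 0.15, 95% interval -0.70 to -0.06, unadjusted p = 0.0239, adjusted p = 0.409 by edgeR). At 321 to 426 counts per library the counting error alone is up to 5.58% of the level. The 11 epithelial markers were all below 0, with a median log2 fold change of -0.40. Its unadjusted p was 0.0525, 0.0536 and 0.0774 without control replicate 3, Lhx6-/- replicate 2 and Lhx6-/- replicate 3 (edgeR). With the epithelial level as a covariate Fzd10 gave -0.46 (adjusted p = 0.59 by edgeR).

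Fzd9, its closest relative by sequence, was the member with the fewest counts. It measured 3.41, 3.88 and 3.62 CPM in the control libraries against 3.40, 3.25 and 3.44 CPM in the Lhx6-/- libraries. The groups met at their edges. Its log2 fold change was -0.11 with a 95% interval of -0.51 to 0.29 (adjusted p = 0.914 by edgeR), which is wide enough to hold the value of Fzd10. Whether the genotype differences of Fzd9 and Fzd10 differ was not tested.

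**Figure D4:**
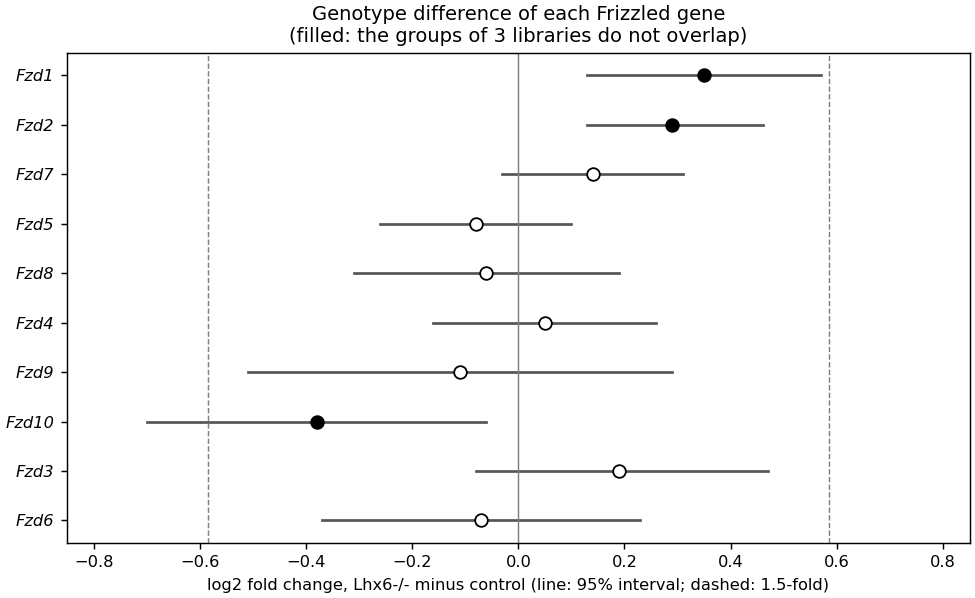
Log2 fold change (Lhx6-/- minus control) of each Frizzled gene with its 95% interval from edgeR, genes in the order of their sequence groups, filled where the 3 libraries of the groups do not overlap, and dashed lines at 1.5-fold. The intervals of Fzd1 (0.13 to 0.57), Fzd2 (0.13 to 0.46) and Fzd10 (-0.70 to -0.06) leave out 0, and only that of Fzd10 reaches past 1.5-fold.

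Fzd5 and Fzd8, canonical receptors known from eye and gut, had overlapping groups. Fzd5 measured 40.8, 41.3 and 48.2 CPM in the control libraries against 40.3, 40.6 and 42.0 CPM in the Lhx6-/- libraries. Control replicate 3 stood high, and the others lay within 2 CPM. This gave a log2 fold change of -0.08 (standard error 0.08, 95% interval -0.26 to 0.10, adjusted p = 0.829 by edgeR). Fzd8 measured 25.3, 28.5 and 27.5 CPM in the control libraries against 23.9, 23.0 and 31.2 CPM in the Lhx6-/- libraries. Lhx6-/- replicate 3 was its highest library and Lhx6-/- replicate 2 its lowest. This gave a log2 fold change of -0.06 (standard error 0.12, 95% interval -0.31 to 0.19, adjusted p = 0.931 by edgeR).

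Fzd4 binds Norrin as well as Wnt proteins and is known for its role in blood vessels of the retina. It measured 19.3, 21.1 and 23.5 CPM in the control libraries against 21.7, 21.4 and 23.2 CPM in the Lhx6-/- libraries, with all Lhx6-/- values inside the control range. Its log2 fold change was 0.05 (standard error 0.10, 95% interval -0.16 to 0.26, adjusted p = 0.927 by edgeR). The 10 endothelial markers were all above 0 over the same libraries, with a median log2 fold change of 0.24.

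Fzd3 and Fzd6, the long-tailed members known for axon guidance and for the planar orientation of hair, had overlapping groups with wide spreads. Fzd6 measured 29.2, 43.2 and 31.8 CPM in the control libraries against 31.5, 31.3 and 36.4 CPM in the Lhx6-/- libraries. Its SD was 21.5% of the mean over the control libraries, the widest of the 10 genes, through control replicate 2. On the log2 scale the change was -0.07 (standard error 0.14, 95% interval -0.37 to 0.23, adjusted p = 0.93 by edgeR) and became 0.12 without that library. Fzd3 measured 16.2, 20.6 and 16.7 CPM in the control libraries against 17.8, 19.7 and 23.6 CPM in the Lhx6-/- libraries. Its log2 fold change was 0.19 (standard error 0.13, 95% interval -0.08 to 0.47, adjusted p = 0.706 by edgeR), and its groups overlapped.

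Both genes were highest in control replicate 2 among the controls and in replicate 3 among the Lhx6-/- libraries. So was Fzd8. The epithelial marker sum had its highest values in these same libraries, 2198 CPM in control replicate 2 and 1230 CPM in Lhx6-/- replicate 3. So did the marker sums of nerve and glia (556 and 539 CPM) and of skeletal muscle (1741 and 2186 CPM). These libraries thus do not single out epithelium, and the nerve and muscle sums were not used as covariates. With epithelial expression as a covariate, the log2 fold change was 0.48 for Fzd6 (unadjusted p = 0.00173, adjusted p = 0.169 by edgeR) and 0.60 for Fzd3 (unadjusted p = 0.00326, adjusted p = 0.215 by edgeR), both higher in Lhx6-/- tissue. With Y-linked expression as a covariate they were -0.45 (adjusted p = 0.115 by edgeR) and -0.12 (adjusted p = 0.789 by edgeR). The direction of both genes thus turned on what the fit held constant. The epithelial sums did not overlap between genotypes, so that their part and that of genotype cannot be told apart.

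The transcripts whose levels most resembled those of Fzd2, the member with both the highest level per length and the smallest p, were Frs2, an adaptor of FGF receptors, the unnamed gene Gm30655, and Neo1, a receptor for netrins and repulsive guidance molecules. Over 6 libraries and among 15121 genes with a mean of at least 1 CPM, Pearson's r of the log2 levels was 0.998 (Spearman's rho 1) for Frs2, 0.996 (rho 0.943) for Gm30655 and 0.993 (rho 0.943) for Neo1. These are the highest values among many genes in few libraries that share a genotype split, and they are given as a description. Frs2 measured 42.9, 39.2 and 37.9 CPM in the control libraries against 46.6, 50 and 47.9 CPM in the Lhx6-/- libraries (adjusted p = 0.23 by edgeR).

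Around the receptors, a few genes that bind Wnt proteins or the receptors did pass the test. Ligands were measured first. Of 17 Wnt genes tested, 0 were higher and 1 was lower at an adjusted p under 0.05, and the median log2 fold change was -0.10. The gene was Wnt4, a ligand made by many epithelia, at 93.8, 101 and 101 CPM in the control libraries against 66.5, 66.4 and 73.1 CPM in the Lhx6-/- libraries (log2 fold change -0.52, standard error 0.07, adjusted p = 0.00879 by edgeR). The paper, by in situ hybridization on sections at the same age, reported no significant change of Wnt4, a measure unlike these counts. Wnt7a, next by p, was at -0.31 (adjusted p = 0.295 by edgeR). The epithelial markers summed to less in the same libraries, and with epithelial expression as a covariate Wnt4 was at -0.43 (adjusted p = 0.149 by edgeR).

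Proteins that carry a Frizzled-type domain without being Frizzled receptors include secreted binders of Wnt. Of 10 tested, 2 were higher and 0 lower, and the median was 0.16. Sfrp2 measured 146, 102 and 125 CPM in the control libraries against 312, 216 and 276 CPM in the Lhx6-/- libraries (log2 fold change 1.11, standard error 0.17, adjusted p = 0.0429 by edgeR). Frzb measured 38.7, 37.5 and 36 CPM in the control libraries against 66.7, 54.6 and 63.2 CPM in the Lhx6-/- libraries (log2 fold change 0.72, standard error 0.08, adjusted p = 0.00576 by edgeR). Both were apart in all libraries. The study had itself singled out both on these samples, so that these counts are not independent evidence of a direction. By in situ hybridization and RT-qPCR the paper also reported higher levels of both in this region of Lhx6-/- mice at the same age. It reported the same of Sfrp2 at a later age.

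Partners at the membrane mostly missed the threshold. Of the 7 co-receptors, 0 passed. Lrp6, which canonical signaling needs, was at 0.21 (adjusted p = 0.435 by edgeR) and its relative Lrp5 at 0.17 (adjusted p = 0.541 by edgeR), with a list median of 0.11. Of 14 genes that set how long a Frizzled stays at the surface, 0 passed. Shisa2, which holds Frizzled proteins in the endoplasmic reticulum, was at 0.45 (adjusted p = 0.264 by edgeR) and Rspo1, whose protein keeps Frizzled receptors at the surface, at 0.29 (adjusted p = 0.374 by edgeR), with a median of 0.10. Of 9 genes of the Norrin and Fzd4 complex and of Fzd4 signaling in vessels, 1 was higher. It was Cldn5, a tight junction gene of endothelium, at 13.6, 15.6 and 15 CPM in the control libraries against 24, 22.8 and 21.8 CPM in the Lhx6-/- libraries (log2 fold change 0.64, adjusted p = 0.014 by edgeR). Adgra2, a co-activator of Wnt7 signaling in vessels, was at 0.41 (adjusted p = 0.0725 by edgeR). Cldn5 is itself among the endothelial markers, which were higher in sum in Lhx6-/- libraries, and Fzd4 was not (log2 fold change 0.05).

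Downstream of the receptors 1 gene passed. Of 26 genes from Dishevelled to the TCF factors 0 passed, with a median of 0.02. The Dishevelled-binding regulators Dact1 and Dact3 were at 0.34 and 0.36 (adjusted p = 0.238 and 0.247 by edgeR). Of 17 targets and feedback genes of canonical signaling, 0 were higher and 1 was lower, with a median of -0.10. It was Notum, whose enzyme removes the lipid by which Wnt proteins bind Frizzled, at 18.5, 13.5 and 19.0 CPM in the control libraries against 8.95, 9.12 and 9.12 CPM in the Lhx6-/- libraries (log2 fold change -0.90, standard error 0.13, adjusted p = 0.0145 by edgeR). Nkd1, a target that dampens Dishevelled, was at -0.47 (adjusted p = 0.131 by edgeR). In the planar polarity list, in which Fzd3 and Fzd6 act, 0 of 19 passed, the median was -0.003, and Prickle2 and Prickle4 led by p at 0.25 and 1.30 (adjusted p = 0.399 and 0.42 by edgeR), Prickle4 at no more than 1.28 CPM in any library. In the calcium branch 0 of 17 passed, the median was 0.08, and Nfatc4 and Camk2b led at 0.26 and 0.49 (adjusted p = 0.285 and 0.299 by edgeR).

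The 5 calls, Wnt4, Notum, Sfrp2, Frzb and Cldn5, kept their direction in all 20 alternatives. Without control replicate 3 none of the 5 passed, at adjusted p-values of 0.0623 for Frzb, 0.0837 for Wnt4 and Cldn5, 0.115 for Notum and 0.157 for Sfrp2 (edgeR). Without Lhx6-/- replicate 1 only Frzb did (adjusted p of the others 0.0709 to 0.0905, edgeR), and without Lhx6-/- replicate 2 Wnt4, Notum and Cldn5 did not. Sfrp2 also missed the threshold without control replicate 2 and without Lhx6-/- replicate 3, and with upper-quartile scaling (adjusted p = 0.0679), no filter (0.0607) and the filter of 10 counts in every library (0.0555), all by edgeR, and so in 10 of the 20 alternatives. With epithelial expression as a covariate Sfrp2 was at 0.68 (adjusted p = 0.437 by edgeR), and Wnt4, Frzb and Cldn5 did not pass either. With Y-linked expression as a covariate Notum was at -0.52 (adjusted p = 0.148 by edgeR), and Cldn5 did not pass either. None of the 5 passed with the endothelial covariate, which left 1 call among all genes. Blocked by the numbers in the library names, Sfrp2, Notum and Cldn5 had adjusted p-values of 0.114, 0.101 and 0.105 (edgeR). In that fit control replicate 1 and Lhx6-/- replicate 3 have no partner and do not inform the genotype difference.

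**Figure D5:**
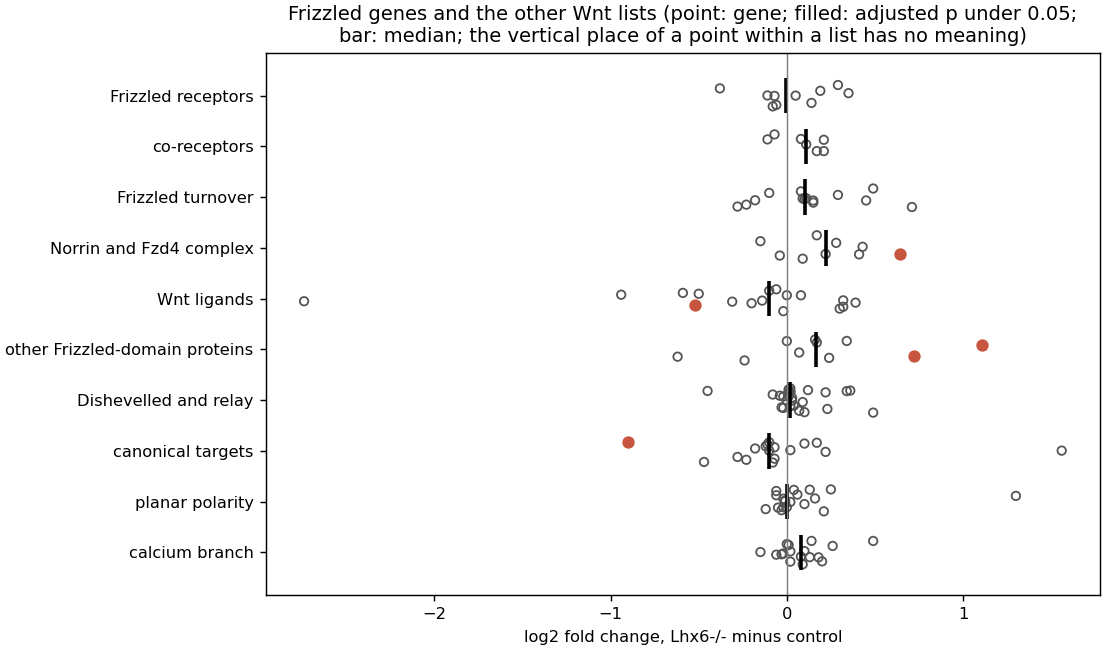
Log2 fold change (Lhx6-/- minus control) of the Frizzled genes and of 9 lists of other Wnt genes, 1 point per tested gene, filled at an adjusted p under 0.05, with a bar at the list median. The 10 Frizzled genes lie between -0.38 and 0.35 with none filled, while Sfrp2 (1.11), Frzb (0.72), Cldn5 (0.64), Wnt4 (-0.52) and Notum (-0.90) are the filled points.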

How the data were processed

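RNA of 3 control and 3 Lhx6-/- libraries was sequenced for 75 single-end cycles. The authors trimmed the reads and aligned them with STAR 2.6.1d to mm10, and they deposited unscaled estimated counts per gene from Partek. The counter and the annotation are not given in the sources used here. The authors' table of means fixed the gene order of the count table (largest relative deviation 8.56e-08 over 23594 genes), and its ratios and p-values were not used. The gene sums were 79.96% to 85.19% of the total per library that these means imply. Titles' numbers serve as replicate numbers.

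Estimated counts were rounded and tested for genotype with edgeR 4.0.16 in R 4.3.3 (TMM, filterByExpr, robust quasi-likelihood test, two-sided, Benjamini-Hochberg adjustment over 20114 genes). The threshold was an adjusted p under 0.05. Intervals are 95% t intervals of the log2 fold change. The biological coefficient of variation was 0.202. The smallest p an exact permutation of 3 against 3 allows is 0.1, so none was run. Exon lengths are unions of GENCODE vM21 exons. The 20 alternatives included DESeq2 1.42.0, limma 3.58.1 (trend with prior counts of 2 and 0.5, and voom), other scalings and filters, covariates, blocks and leaving out each library. The same alternatives were applied to Lhx6 and to the 5 other Wnt genes called, after seeing the data. The code was tested on simulated data. The members, lists and alternatives were chosen with earlier results of these data known. Genes named besides the 10 members were Lhx6 and, of each other Wnt list, those with an adjusted p under 0.05 and the 2 with the smallest p; likewise the 3 genes most like Fzd2. Figures were drawn with matplotlib 3.10.9. P-values measure the spread between libraries, since no source says which animals went into which.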

Additional observations from a re-analysis of the deposited data

How the results depend on the processing

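The 10 log2 fold changes were recomputed under 20 alternatives each. Of these 200 values, 188 kept their direction and their side of the threshold, and 1 crossed it, Fzd2 in DESeq2 (adjusted p = 0.0499), so that 1 member was called there. Fzd1, Fzd2, Fzd7 and Fzd10 kept their direction in all 20, at 0.16 to 0.50, 0.23 to 0.36, 0.09 to 0.28 and -0.56 to -0.32. The other 11 values changed sign, and the cause was not tested. With the epithelial covariate Fzd6 was at 0.48, Fzd8 at 0.16 and Fzd9 at 0.037, with the Y-linked covariate Fzd3 was at -0.12 and Fzd5 at 0.010, and with the endothelial covariate Fzd6 was at 0.14 and Fzd8 at 0.30. Leaving out a library turned Fzd4 to -0.010 (without control replicate 1), Fzd6 to 0.12 (without control replicate 2) and Fzd8 to 0.025 (without Lhx6-/- replicate 2), over ranges with 1 library left out of -0.010 to 0.13, -0.18 to 0.12 and -0.21 to 0.025. Members that met the 1.5-fold rule numbered 1 with the epithelial and 1 with the endothelial covariate, Fzd3 both times, and with the endothelial covariate 1 member had an unadjusted p under 0.05.

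Genes called at an adjusted p under 0.05 numbered 315 in DESeq2, 233 with the Y-linked, 20 with the epithelial and 1 with the endothelial covariate, against 81, and 12 to 127 when 1 library was left out (12 without control replicate 3, 20 without Lhx6-/- replicate 2, 31 without Lhx6-/- replicate 1, 127 without control replicate 1). The 1.5-fold rule was met by 1174 genes with the Y-linked covariate, against 660. In the order of levels, 1 of 10 members kept its place with coding length, and 7 to 10 did when a control library was left out. Libraries of the same number did not deviate together (correlations -0.0314 to 0.0256, and control replicate 1 correlated more with Lhx6-/- replicate 2), so these correlations gave no sign of pairing by title number. The paper states that controls and mutants were littermates and that pairs were sequenced, but no source says which libraries form a pair. The replicate block, by title number, moved the called genes to 134 and called 0 members. In it the standard errors of Sfrp2 and Lhx6 were 0.08 and 0.11, against 0.17 and 0.16 without a block (adjusted p = 4e-05 and 0.00082 by edgeR). Those of Frzb, Wnt4 and Cldn5 were 0.09, 0.08 and 0.11, against 0.08, 0.07 and 0.09. Whether the title numbers mark pairs is not known. Blocked by the numbers in the library names, which also need not mark pairs, Fzd4 turned to -0.047, Fzd3 was at 0.012, and the calls of Lhx6, Sfrp2, Notum and Cldn5 were lost. That block leaves control replicate 1 and Lhx6-/- replicate 3 without a partner, so they do not inform its genotype difference. The effect of the block and that of fewer libraries cannot be told apart. The 3 libraries of a group set the precision, and for Fzd9 counting error, up to 6.93% of its level, adds to it.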

Other observations

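Some genes that act directly beside the receptors fell outside the naming rule and were picked after their values were seen. The 3 Dishevelled genes, whose proteins dock at the motif shown above, did not pass the test. Dvl1 measured 64.2, 55.1 and 61.7 CPM in the control libraries against 65.7, 59.2 and 58.0 CPM in the Lhx6-/- libraries, and the log2 fold changes of Dvl1, Dvl2 and Dvl3 were 0.01, -0.02 and 0.07 (standard errors 0.08, 0.10 and 0.07, adjusted p = 0.979, 0.973 and 0.825 by edgeR). Smo, the Hedgehog receptor component that belongs to the same receptor class as the Frizzled proteins, measured 116, 112 and 122 CPM in the control libraries against 124, 122 and 121 CPM in the Lhx6-/- libraries (log2 fold change 0.07, adjusted p = 0.829 by edgeR).

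The ubiquitin ligases that take Frizzled receptors off the membrane were Rnf43 and Znrf3. Rnf43 measured 13.9, 13.2 and 14.1 CPM in the control libraries against 9.43, 12.8 and 11.6 CPM in the Lhx6-/- libraries (log2 fold change -0.28, standard error 0.13, adjusted p = 0.488 by edgeR). Its groups did not overlap, which held for 15.5% of all tested genes. Znrf3 was at -0.18 (standard error 0.10, adjusted p = 0.63 by edgeR). Axin2, the usual readout of canonical signaling, was at -0.08 (standard error 0.11, adjusted p = 0.897 by edgeR), with overlapping groups. The paper reported lower Axin2 in the furcation development region at a later age, by in situ hybridization and RT-qPCR, and that age was not sequenced.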
